A study of Mus musculus with 24 samples.

Results

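Brown preadipocytes that had been given EGCG were compared at day 8 of differentiation with untreated brown preadipocytes at day 4, using 6 of the 24 libraries of the series (3 in each group). The members were chosen by their labels alone. EGCG (epigallocatechin gallate) is a catechin of green tea. The cells were primary stromal vascular cells, the mixed precursor fraction of fat, from interscapular brown fat (brown adipose tissue, BAT) of C57BL/6 mice aged 6 weeks. Control cells received DMSO in place of EGCG, and the labels give neither the dose nor the days on which EGCG was present. All groups had been induced for 4 days with insulin, dexamethasone and IBMX, which raise glucocorticoid and cAMP signalling, and those collected at day 8 had then spent 4 more days in insulin and the thyroid hormone T3. EGCG day 8 therefore shared its medium with BAT control day 8 and not with BAT control day 4, so that days in culture and medium cannot be told apart in the main comparison. BAT control day 8 (3 libraries) was the other end of the control path, and the same comparison in white preadipocytes from inguinal fat (WAT, 6 libraries) was used to ask where brown cells differed. The labels do not say whether replicates came from separate mice or cultures, so p-values measure a spread between libraries, which may be technical. That spread was pooled over 16 of the 24 libraries, from all 8 groups of BAT and WAT, with replicate 3 left out. It is therefore not the spread of the compared BAT libraries alone.

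Brown adipocytes arise when precursors leave the cell cycle and switch on the nuclear receptor PPARγ and its partner C/EBPα. These factors turn on the genes of lipid droplets, fatty acid synthesis and mitochondria, and mature cells add UCP1, which lets mitochondria burn fuel as heat. Precursors that do not take this route can keep a fibroblast programme of matrix and contractile genes, which TGF-β and the YAP/TAZ cofactors favour. A delay after day 4 would leave day 8 cells close to control day 4 or between the control days. Values beyond both control days lie outside that stretch. No day before day 4 was sampled, so a value beyond both days cannot tell an earlier stage from another route. The comparison asked which genes were which.

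Between 39452696 and 52893848 reads lay on genes in the BAT libraries of replicates 1 and 2, and between 16803199 and 18146594 in those of replicate 3, which the authors deposited in a table of its own. A floor of 3 reads on a gene of 2 kb corresponds to 0.0284 to 0.0380 FPKM (reads scaled to gene length and to all reads on genes) in the first libraries and to 0.0827 to 0.0893 FPKM in the second. The 5 genes with most reads took 3.94% to 8.15% of the reads in BAT replicates 1 and 2 and 3.64% to 7.85% in BAT replicate 3. The brown label was checked against the thermogenic list. Zic1, a transcription factor that marks brown fat, had means of 10.6 FPKM in BAT and 0.0454 in WAT control day 4. Cox7a1, a cytochrome oxidase subunit, had 3.21 and 2.59 FPKM in control day 4 and 191 and 21.1 in control day 8. Not every gene of the list was higher in BAT on both days. Cox8b had 3.87 FPKM in BAT and 4.99 in WAT control day 4, then 80.5 and 6.52 in control day 8. Elovl3 had 11.6 and 3.55, then 1.74 and 1.77 FPKM. In BAT control cells Ucp1, the uncoupling protein, was low at 0.423 and 0.243 FPKM at day 4 and at 6.97 and 6.15 FPKM at day 8. A sum over cells cannot tell fewer adipocytes from less RNA per adipocyte in any of the results that follow.

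EGCG day 8 differed from control day 4 in 9973 of 14095 genes tested (70.8%), with 5189 genes higher and 4784 lower (limma on log2(FPKM + 1) of replicates 1 and 2, adjusted p under 0.05). Of these, 1384 (9.82%) were at least 2-fold higher and 1175 (8.34%) at least 2-fold lower on that scale. Against control day 8 it differed in 10231 genes (72.6%), with 6549 higher and 3682 lower, or 5100 and 4742 after median-ratio scaling. Both comparisons use the same EGCG day 8 libraries. A gene was placed outside the control path when it was called in the same direction in both.

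By that rule 4024 genes (28.5% of those tested) lay above both control days and 2418 (17.2%) below both, a split of 62.5% above that became 52.3% after median-ratio scaling. A further 1460 genes (10.4%) lay between the control days, 2329 (16.5%) could not be told apart from control day 4 but differed from day 8, 2071 (14.7%) could not be told apart from control day 8 but differed from day 4, and 1793 (12.7%) differed from neither. With a change of at least 2-fold against each control day, 706 genes (5.01%) were above and 553 (3.92%) below. At that line, Tagln2 was just inside and Magi2 just outside among genes above (1.001 and 0.9996, the smaller of the log2 changes), and Sap25 and Gpr162 among genes below (1.003 and 0.999). Under as-deposited, median-ratio and quantile scaling alike, 705 of the 706 genes were above and 553 of the 553 below. Replicate 3 was not used in these tests. It was above both of its own control libraries for 686 of the 706 genes (97.2%, against 41.5% of all genes tested). It was below both for 535 of the 553 (96.7%, against 25.9%).

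**Figure D1:**
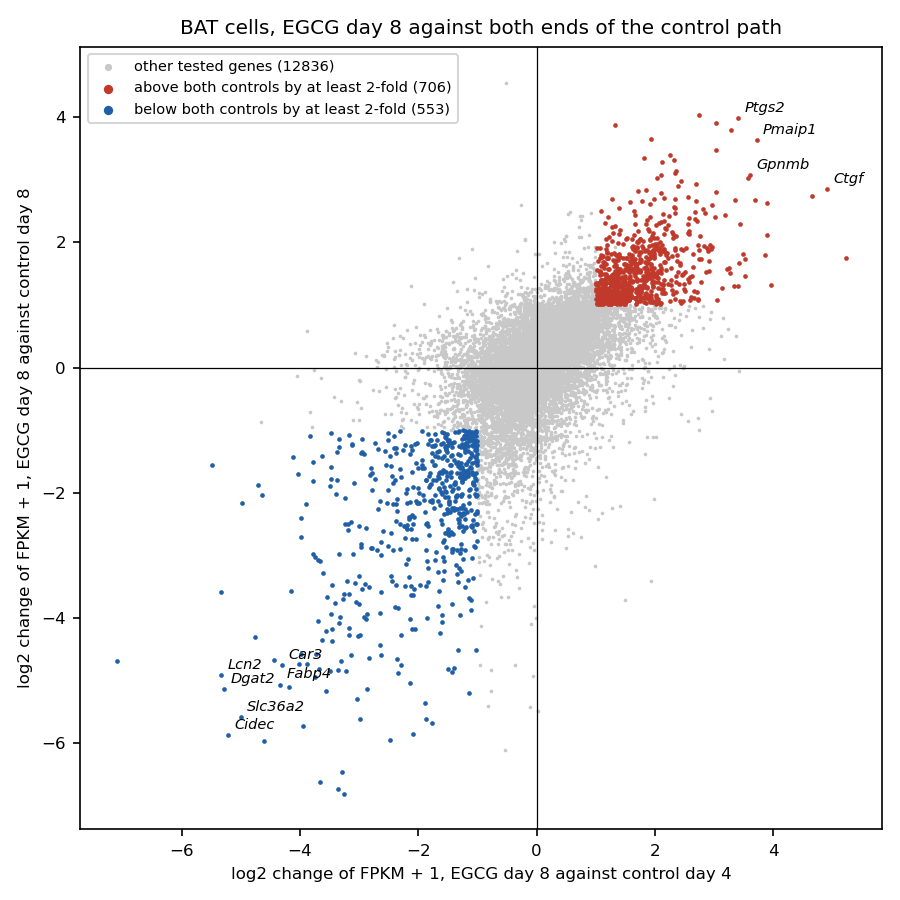
Change of each of the 14095 tested genes between EGCG day 8 and control day 4 (horizontal axis, log2 of FPKM + 1) against its change between EGCG day 8 and control day 8 (vertical axis, same scale) in BAT cells. The 706 red genes were at least 2-fold above both control days and the 553 blue genes at least 2-fold below both, and since the axes share the EGCG day 8 libraries the diagonal trend is not a result.

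Genes that moved on the control path itself were then followed. Control day 8 differed from control day 4 in 9751 genes (69.2%), with 4050 higher (28.7%) and 5701 lower (40.4%), or 5025 and 4400 after median-ratio scaling. From day 4 to day 8, 1057 genes (7.5%) rose at least 2-fold in control cells and 921 (6.53%) fell at least 2-fold. Among the genes that rose, EGCG day 8 was below control day 4 for 301, could not be told apart from day 4 for 241, lay between the days for 238, could not be told apart from day 8 for 113 and was above day 8 for 162. Genes that fell were distributed differently. EGCG day 8 was above control day 4 for 58, could not be told apart from day 4 for 76, lay between the days for 429, could not be told apart from day 8 for 224 and was below day 8 for 118. The remaining 2 and 16 genes were called against neither control day. In replicate 3 the genes that rose in controls were split into 429 behind day 4, 424 between and 204 past day 8, and the genes that fell into 96, 628 and 197. These positions rest on control libraries that also defined the path and are given without a test.

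**Figure D2:**
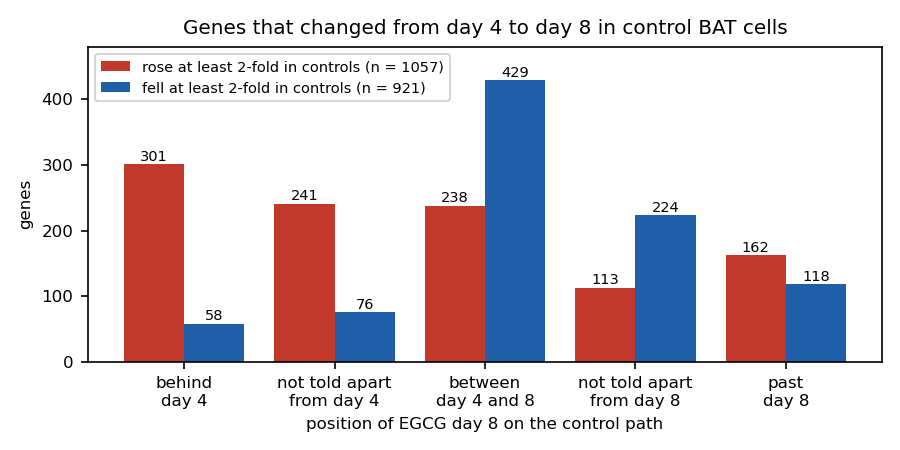
Number of genes (vertical axis) by the position of EGCG day 8 on the control path (horizontal axis), for the 1057 genes that rose (red) and the 921 that fell (blue) at least 2-fold from day 4 to day 8 in control BAT cells. Genes that rose are most often behind day 4 (301) and genes that fell most often between the days (429), and 2 and 16 genes called against neither day are not drawn.

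By the smaller of the log2 changes, the 10 genes farthest below the path were Cidec, Dgat2, Slc36a2, Lcn2, Cxcl13, C3, Mc5r, Fabp4, Rgs2 and Car3. They were chosen for these changes and for the same direction in replicate 3, so their replicate 3 values and the gap to the controls are a description. Cidec, a lipid droplet protein that enlarges droplets (chromosome 6, 113374628 to 113385754, mm9, minus strand), had 75.9 and 93.5 FPKM in control day 4, 134 and 132 in control day 8 and 1.22 and 1.37 in EGCG day 8, with 112, 143 and 1.45 FPKM in replicate 3. The EGCG libraries were below every control library. Cidec was 65.4-fold lower than at control day 4 in mean FPKM, and its log2 change was -5.22 ± 0.11 (SE, adjusted p = 1.6e-11, limma).
Fabp4, the fatty acid carrier that is among the most abundant adipocyte transcripts (chromosome 3, 10204347 to 10208576, minus strand), had 4219 and 4918 FPKM in control day 4, 7489 and 7602 in control day 8 and 225 and 223 in EGCG day 8. Replicate 3 had 5456, 7034 and 235 FPKM. Fabp4 was 20.4-fold lower than at control day 4 (log2 change -4.34 ± 0.10, SE, adjusted p = 2.5e-11, limma).
Dgat2, which adds the last fatty acid to a triglyceride (chromosome 7, 106302173 to 106331223, minus strand), had 262 and 310 FPKM in control day 4, 263 and 254 in control day 8 and 6.17 and 6.52 in EGCG day 8. It did not move from day 4 to day 8 in controls by more than their spread, and EGCG day 8 was 45.1-fold below day 4 (log2 change -5.28 ± 0.09, SE, adjusted p = 7.6e-12, limma).
Others of the 10 genes farthest below were Slc36a2, an amino acid transporter enriched in brown fat (57.4 FPKM at control day 4, 86.9 at control day 8 and 0.822 at EGCG day 8, means of n = 2), Car3, a carbonic anhydrase of adipocytes (1392, 1900 and 69.5 FPKM), and Mc5r, a melanocortin receptor (28.2, 33.2 and 0.343 FPKM). Rgs2, a regulator of G protein signalling that cAMP induces, went from 65.9 FPKM at control day 4 and 47.8 at control day 8 to 1.46. Acsl1, which activates fatty acids for synthesis and oxidation, was among the 5 lowest changes against day 4 with 344, 101 and 7.48 FPKM. In these genes EGCG day 4 lay between control day 4 and EGCG day 8, as with 17 FPKM for Cidec, 998 for Fabp4 and 34.7 for Dgat2, and Car3 was already near its later value at 76 FPKM.

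**Figure D3:**
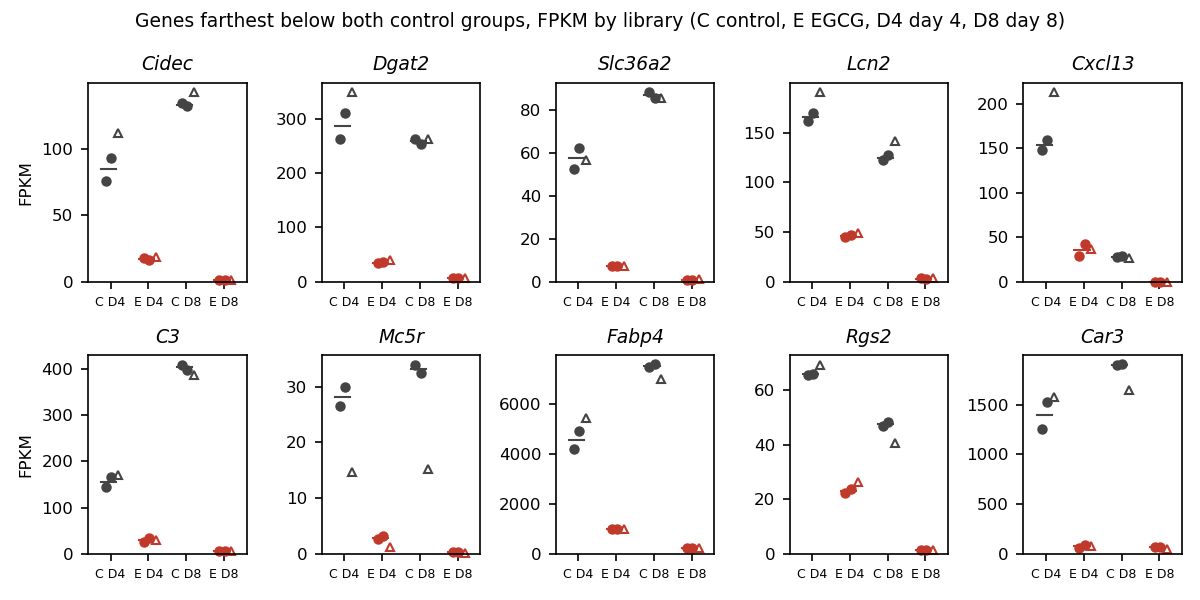
FPKM (vertical axes from 0) of the 10 genes farthest below both control days in each BAT library, by group (C control, E EGCG, D4 day 4, D8 day 8). Filled circles are replicates 1 and 2 with their mean as a bar, open triangles are replicate 3 from the separately scaled table, as for Fabp4 at 223 to 235 FPKM in EGCG day 8 and 4219 FPKM or more in the controls. The genes were chosen for large changes in 1 direction, replicate 3 included, so the gap between the groups is not a result.

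The regulators of the adipocyte programme were below both control days too. Pparg (chromosome 6, 115311239 to 115440419, plus strand) had 78.9 and 94.6 FPKM in control day 4, 140 and 137 in control day 8 and 11.3 and 11.1 in EGCG day 8, with 89.9, 118 and 9.17 in replicate 3. It was 7.73-fold lower than at control day 4 (log2 change -2.84 ± 0.11, SE, adjusted p = 5.3e-10, limma). Cebpa fell from 229 and 272 FPKM to 27.3 and 29.2, an 8.86-fold difference. Of the 15 early adipogenic regulators, 8 were below the path, 2 above, 1 between and 4 were not told apart from day 4. Over all genes tested, 17.2% were below and 28.5% above. Cebpb and Cebpd, which act before PPARγ, were below (97 to 40.6 and 112 to 71.4 FPKM against control day 4), as were Klf15 (29.8 to 3.74) and the nuclear receptor Nr1h3 (18 to 5.72). Klf4 and Egr2, early inducers of the programme, were above (6.25 to 44.2 and 25.6 to 59.5 FPKM). Ebf1 and Stat5b, with log2 changes of -0.06 and 0.00, were not told apart from day 4.

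Among 20 mature adipocyte genes, 19 were below both control days (17 of them by at least 2-fold), where 17.2% of all genes were. Their median log2 change was -3.05 against control day 4 and -4.20 against control day 8, beside 0.01 and 0.17 over all genes tested. Adiponectin (Adipoq) went from 309 FPKM at control day 4 and 388 at control day 8 to 37.4, perilipin Plin1 from 219 and 330 to 12.9, and the lipase Lipe from 86.8 and 136 to 6.39. Leptin (Lep) was the exception. It had 0.473 and 0.484 FPKM in control day 4, 57.1 and 58.4 in control day 8 and 0.400 and 0.342 in EGCG day 8, and was not told apart from day 4 (log2 change -0.11 ± 0.07, SE, adjusted p = 0.16, limma).
All 15 lipogenesis genes were below the path. Scd1, the desaturase that makes oleic acid, had 1633 and 1840 FPKM in control day 4, 8438 and 8207 in control day 8 and 214 and 209 in EGCG day 8. That was 8.22-fold below the first and 39.4-fold below the second control day. Fatty acid synthase (Fasn) had means of 214, 831 and 33.4 FPKM, and Thrsp, which T3 induces, 103, 1076 and 9.06 FPKM. Of 11 triglyceride synthesis genes 10 were below, among them Gpd1 (88.4, 167 and 3.88 FPKM) and Agpat2 (267, 435 and 23.2 FPKM), and Mogat1 was not told apart from day 4.

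Mitochondrial genes lay below the path by smaller steps. All 15 citric acid cycle genes, 15 of 16 fatty acid oxidation genes and 24 of 26 oxidative phosphorylation genes were below both control days. For all genes tested that share was 17.2%. The median log2 changes of these lists against control day 4 were -0.78, -0.90 and -0.65, and 4, 6 and 3 of their genes passed 2-fold. Citrate synthase (Cs) had means of 170 FPKM at control day 4, 295 at control day 8 and 80.5 at EGCG day 8, and the cytochrome oxidase subunit Cox4i1 had 549, 980 and 291 FPKM. Under quantile scaling 23 oxidative phosphorylation genes were below. Cpt1a, which admits fatty acids to mitochondria, was the opposite of the rest of its list. It had 11.4 and 9.91 FPKM in control day 4, 9.80 and 10.6 in control day 8 and 25.8 and 25.8 in EGCG day 8 (log2 change 1.21 ± 0.11, SE, adjusted p = 9.4e-07, limma).

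The thermogenic list was mixed, with 10 of 18 tested genes below, 3 between, 4 not told apart from day 4 and 1 above. Over all genes tested, 17.2%, 10.4%, 16.5% and 28.5% held these positions. Ucp1 had 0 reads in all 3 EGCG day 8 libraries, against 0.423 and 0.243 FPKM in control day 4 and 6.97 and 6.15 in control day 8. With the floor of 3 reads per library this is at least 9.08-fold lower than control day 4. The coactivator Ppargc1a (3.28, 3.61 and 0.354 FPKM), the potassium channel Kcnk3 (6.37, 41.7 and 0.446 FPKM) and the fatty acid elongase Elovl3 (11.6, 1.74 and 0.0107 FPKM) were below. Elovl3 had 1 read in each EGCG day 8 library tested, under the floor of 3 reads. By contrast Cox7a1 kept to its day 4 level with 2.87 and 3.64 FPKM in EGCG day 8 against 2.87 and 3.54 in control day 4 and 191 and 190 in control day 8. Ebf2, a brown precursor factor (17.1, 20.1 and 16.9 FPKM), was not told apart from day 4. Cidea (0.285 FPKM at day 4, 11 at day 8 and 0.0498 with EGCG) was not called against day 4 either. Its mean was 5.73-fold lower than at day 4, with 16 and 12 reads in control day 4 and 1 and 5 in EGCG day 8. The log2(FPKM + 1) scale shrinks changes of values this low. Prdm16, a brown fate regulator, lay between (1.41, 2.29 and 1.85 FPKM). Fabp3, a fatty acid carrier of muscle and brown fat, was above both days, with 0.936 and 1.13 FPKM in control day 4, 0.366 and 0.493 in control day 8 and 9.44 and 9.97 in EGCG day 8 (log2 change 2.40 ± 0.25, SE, adjusted p = 4.0e-06, limma). Fabp3 overlaps Zcchc17 and Gm10570 in the annotation, and whether counting used strand is not given in the sources used here.

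Complement and acute phase genes were mostly below the path, each list in 11 of 12 cases, where 17.2% of all genes were. C3, the central complement protein (chromosome 17, 57343397 to 57367559, minus strand), had 145 and 166 FPKM in control day 4, 408 and 396 in control day 8 and 5.55 and 5.26 in EGCG day 8, 28.8-fold below day 4. Lcn2, a siderophore-binding lipocalin, had 162 and 170 FPKM in control day 4, 122 and 127 in control day 8 and 3.65 and 2.70 in EGCG day 8 (log2 change -5.33 ± 0.22, SE, adjusted p = 1.3e-09, limma). Cxcl13, a B cell chemokine, had the lowest log2 change of the genes tested against day 4 (-7.09) and went from 148 and 159 FPKM to 0.127 and 0.129, with 213 and 0.0493 in replicate 3. Saa3, an acute phase apolipoprotein, had already fallen from 593 and 513 FPKM to 33.7 and 36.9 in controls and stood at 12.7 and 10.2 in EGCG day 8. The median log2 changes of the complement and acute phase lists against day 4 were -1.35 and -2.06. Haptoglobin (Hp, 1132, 5555 and 220 FPKM) and Serpina3n (736, 932 and 129 FPKM) were among them. Saa1 and Saa2 are close copies whose reads may be shared.
Of 22 tested chemokine and cytokine genes 7 were above and 4 below, each by at least 2-fold, where 5.01% and 3.92% of all genes were. Without that size limit 28.5% and 17.2% of all genes tested were above and below. Ccl7, a monocyte attractant, had 25.9 and 23.1 FPKM in control day 4, 9.07 and 12.2 in control day 8 and 115 and 127 in EGCG day 8. Il6 had 4.25 and 3.25, then 1.40 and 2.45, and 17.8 and 17.6 FPKM with EGCG. Csf1, the macrophage growth factor, had 125 and 119, 127 and 131, and 465 and 488 FPKM. Ccl2, Ccl8, Lif and Il1rl1 were above as well, and Cxcl13, Ccl9, Cxcl12 and Il33 below.

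Glucocorticoid response genes were below the path in 11 of 17 cases, above in 3 and not told apart from day 4 in 3. Over all genes tested, 17.2%, 28.5% and 16.5% held these positions. Fkbp5 had means of 73.5, 138 and 23.5 FPKM, Zbtb16 of 23, 35 and 3.83, and glutamine synthetase (Glul) of 258, 629 and 40.5. Sgk1 (25.3, 36.5 and 66.9 FPKM) and Lox, the collagen cross-linking enzyme (433, 1074 and 1753 FPKM), were above. Dusp1 was above as deposited, and its call against control day 8 was lost under median-ratio scaling.

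The 10 genes farthest above the path, chosen in the same way, were Pmaip1, Ptgs2, Cd80, Gpnmb, Kif1a, Ass1, Grem1, Ctgf, Prrg4 and Ch25h. Pmaip1 (Noxa), a BH3 protein that p53 induces to promote apoptosis (chromosome 18, 66618258 to 66625204, plus strand), had 3.29 and 3.32 FPKM in control day 4, 3.20 and 3.97 in control day 8 and 54.0 and 57.2 in EGCG day 8, with 3.33, 4.19 and 52.8 in replicate 3. It was 16.8-fold higher than at control day 4 (log2 change 3.72 ± 0.10, SE, adjusted p = 6.9e-11, limma). The controls did not separate by day, and the EGCG libraries were above all of them.
Ptgs2, the inducible cyclooxygenase (chromosome 1, 151947254 to 151955140, plus strand), had 2.02 and 1.96 FPKM in control day 4, 0.716 and 1.35 in control day 8 and 29.6 and 32.0 in EGCG day 8, a 15.5-fold difference from day 4 (log2 change 3.41 ± 0.26, SE, adjusted p = 2.0e-07, limma). Ctgf, a matrix-associated growth factor that TGF-β and YAP/TAZ induce (chromosome 10, 24315248 to 24318489, plus strand), had 17.6 and 21.4 FPKM in control day 4, 77.3 and 91.5 in control day 8 and 601 and 627 in EGCG day 8. Ctgf rose along the control path and went 7.27-fold past its end, and it overlaps Gm15270 in the annotation.
Grem1, an antagonist of bone morphogenetic proteins, had means of 2.64 FPKM at control day 4, 1.65 at control day 8 and 28.6 at EGCG day 8. Ass1, which makes argininosuccinate for arginine synthesis, had 20.2, 10.6 and 172 FPKM, and Ch25h, which makes 25-hydroxycholesterol and overlaps Gm16704, had 4.06, 1.10 and 33.1 FPKM. Gpnmb, a lysosomal and cell surface glycoprotein, had 7.80, 11.6 and 106 FPKM. The remaining genes of the 10 were Cd80, a T cell costimulatory ligand (2.58, 1.53 and 33.9 FPKM), Kif1a, a vesicle motor of neurons (2.45, 3.99 and 39.9 FPKM), and Prrg4, a vitamin K dependent membrane protein (0.378, 0.613 and 10.2 FPKM).
The 5 highest changes against day 4 belonged to 9930013L23Rik (0.910, 20.2 and 70.2 FPKM), Ctgf, the metalloproteinase inhibitor Timp3 (12.9, 51.7 and 348 FPKM), the small heat shock protein Cryab (18.1, 118 and 295 FPKM) and the annexin Anxa3 (10.1, 25.7 and 164 FPKM). Each of these also rose in control cells. Timp3 lies within Syn3 in the annotation. At EGCG day 4 the mean was 25.7 FPKM for Pmaip1, 7.99 for Ptgs2 and 137 for Ctgf, between control day 4 and EGCG day 8.

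**Figure D4:**
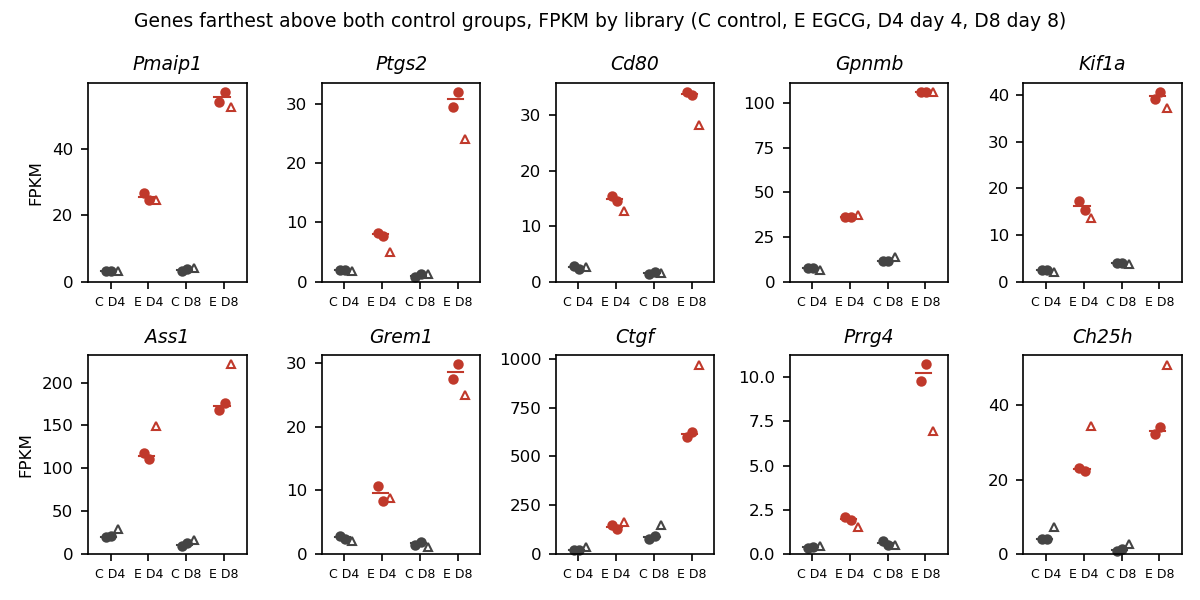
FPKM (vertical axes from 0) of the 10 genes farthest above both control days in each BAT library, by group (C control, E EGCG, D4 day 4, D8 day 8). Filled circles are replicates 1 and 2 with their mean as a bar and open triangles replicate 3 from the separately scaled table, as for Pmaip1 at 52.8 to 57.2 FPKM in EGCG day 8 and 4.19 FPKM or less in the controls. The genes were chosen for large changes in 1 direction, replicate 3 included, so the gap between the groups is not a result.

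Contractile and myofibroblast genes formed the list with the highest median, 2.61 on the log2 scale against control day 4. Of its 18 genes, 14 were above the path (11 by at least 2-fold), where 28.5% of all genes were, and 12 were above after median-ratio scaling. Acta2, smooth muscle actin, had 47.5 and 61.2 FPKM in control day 4, 209 and 250 in control day 8 and 755 and 841 in EGCG day 8 (64.2, 294 and 989 in replicate 3). It was 14.7-fold above day 4 and 3.48-fold above day 8 (log2 change against day 4 3.86 ± 0.18, SE, adjusted p = 2.6e-09, limma). Tagln (50, 173 and 579 FPKM), Tpm1 (44.2, 78.9 and 281 FPKM), Ankrd1 (2.10, 5.88 and 32.7 FPKM) and Cyr61 (117, 310 and 637 FPKM) moved the same way. The other genes of the list did not. Myh11, the smooth muscle myosin, lay between the days (1.38, 9.67 and 2.78 FPKM), Des was not told apart from day 4 (3.15, 7.12 and 3.47 FPKM) and Mylk was below (9.77, 12.1 and 6.50 FPKM), and Tgfbi differed from neither day (12.1, 12.6 and 12.6 FPKM).

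Matrix remodelling genes were above the path in 15 of 24 cases and below in 2, beside 28.5% and 17.2% of all genes tested. The others were between in 1 case, not told apart from day 4 in 2 and not told apart from day 8 in 4. Thbs1 (thrombospondin, 88.1, 372 and 1024 FPKM), Postn (periostin, 347, 637 and 1618 FPKM), Tnc (tenascin, 93.3, 46 and 336 FPKM) and the membrane protease Mmp14 (142, 113 and 435 FPKM) were above. Mmp10 had no read in any control library and 1.37 and 1.56 FPKM in EGCG day 8, at least 35.6-fold above control day 4 at the floor of 3 reads per library. Mmp9 (12.4, 8.04 and 0.0552 FPKM) and elastin (Eln, 6.77, 39.2 and 3.88 FPKM) were below. Collagens did not follow the remodelling genes. Of 22 collagen and basement membrane genes, 9 were below and 3 above, beside 17.2% and 28.5% of all genes tested. Another 1 lay between, 2 were not told apart from day 4, 5 were not told apart from day 8 and 2 differed from neither. The count below was 12 after median-ratio and 6 after quantile scaling. Col6a1 (550, 421 and 137 FPKM), Col15a1 (321, 107 and 64.6 FPKM) and Nid2 (277, 39.7 and 27 FPKM) were below, and Col8a1 (11.2, 73.3 and 114 FPKM), Col12a1 (90.5, 159 and 273 FPKM) and Col5a2 (321, 342 and 573 FPKM) above.

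In the Wnt and TGF-β list, which holds ligands, antagonists and targets, 11 of 24 tested genes were above and 4 below, beside 28.5% and 17.2% of all genes tested. Inhba, a subunit of activin A, had 11.5 and 7.17 FPKM in control day 4, 8.21 and 7.85 in control day 8 and 56.0 and 61.3 in EGCG day 8 (3.41, 4.16 and 40.1 in replicate 3). Inhbb (16, 6.85 and 54.7 FPKM), Tgfb1 (15.6, 12.8 and 50.9 FPKM), Tgfb3 (22.3, 31.3 and 62 FPKM) and Wnt5a (5.45, 5.91 and 12.3 FPKM) were above. Sfrp1 and Sfrp2, secreted Wnt antagonists, were below (318, 333 and 149 FPKM, and 104, 31.3 and 8.42 FPKM), as was Axin2, a target of β-catenin signalling (0.970, 1.10 and 0.507 FPKM).
Among 19 transcription factors and other genes known to restrain adipogenesis 10 were above and 3 below, beside 28.5% and 17.2% of all genes tested. After median-ratio scaling 8 were above and 5 below, where 3312 and 3022 of all 14095 genes tested were. Only Gata2 of the 10 reached 2-fold in both comparisons (1.65, 1.31 and 4.84 FPKM). Klf2 (0.820, 10.1 and 14.8 FPKM), Klf3 (13.6, 18.4 and 32.5 FPKM) and Ddit3 (59.5, 68.2 and 106 FPKM) were among the rest. Dlk1 (Pref-1), the inhibitor that marks preadipocytes, was below with 15.3 and 15.1 FPKM in control day 4, 6.97 and 5.02 in control day 8 and 1.65 and 1.82 in EGCG day 8.

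The precursor markers did not move as a block. Of 22 tested adipose progenitor genes, 8 were above and 3 below, beside 28.5% and 17.2% of all genes tested. Another 3 lay between, 5 were not told apart from day 4 and 3 not told apart from day 8. Pdgfrb, the PDGF receptor of mural and perivascular precursors, had 70.5 and 71.2 FPKM in control day 4, 62.3 and 61.8 in control day 8 and 216 and 221 in EGCG day 8, while Pdgfra had means of 82.7, 59.2 and 62 FPKM and was not told apart from day 8. Cd44 (26.7, 12.1 and 81.5 FPKM), Itgb1 (181, 245 and 592 FPKM) and F3, which encodes tissue factor (176, 208 and 636 FPKM), were above. Pi16 (1.43, 1.07 and 0.219 FPKM), Dcn (203, 154 and 79 FPKM) and Lum (18.3, 2.86 and 1.47 FPKM) were below. Ly6a (Sca-1) was not told apart from day 4 with 178, 289 and 141 FPKM.

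Cell cycle genes had left their day 4 levels and stood close to control day 8. Of 23 genes 22 were lower than at control day 4, where 33.9% of all genes tested were, with a median log2 change of -2.29. Their median change against control day 8 was 0.21. Mki67 (Ki-67) had 16.4 and 15.8 FPKM in control day 4, 1.42 and 1.54 in control day 8 and 1.68 and 2.05 in EGCG day 8. Top2a had means of 39.4, 3.80 and 4.46 FPKM, Ccnb1 of 22, 2.41 and 2.86 and Cdk1 of 17.3, 2.95 and 3.03. As deposited 13 of the genes lay between the control days (10.4% of all genes did) and 8 were not told apart from day 8 (14.7%). However, Mki67, Top2a, Ccna2, Aurkb, Plk1, Pcna and Kif11 no longer differed from control day 8 after median-ratio scaling. Rrm2 and Mcm2, which act in DNA synthesis, had 28.9, 4.52 and 15.9 FPKM and 14.8, 2.70 and 7.35 FPKM. The EGCG day 4 means were 15.5 FPKM for Mki67 and 38.4 for Top2a.
Ccnd1 (cyclin D1), which growth signals induce, was the exception, with 9.53 and 9.33 FPKM in control day 4, 17.2 and 18.7 in control day 8 and 70.1 and 67.3 in EGCG day 8 (log2 change 2.74 ± 0.07, SE, adjusted p = 4.1e-11, limma). It overlaps Oraov1 in the annotation.

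Targets of p53 were found above and below both control days. Mdm2, which p53 induces and which in turn degrades p53, had 38.0 and 36.1 FPKM in control day 4, 32.5 and 30.7 in control day 8 and 186 and 196 in EGCG day 8 (34.5, 28.9 and 171 in replicate 3). Cdkn1a (p21), a CDK inhibitor and p53 target, had 82.6 and 88.2 FPKM in control day 4, 197 and 207 in control day 8 and 481 and 489 in EGCG day 8. No EGCG day 8 library overlapped a control library in either gene. How many of all genes separate in this way was not counted, but 28.5% of all genes tested were called above both control days. Ccng1 (92, 102 and 299 FPKM), Bax (85.8, 57.7 and 189 FPKM) and Trp53 itself (28.7, 14.4 and 35.4 FPKM) were above. In all 8 of 14 genes of the list of CDK inhibitors and p53 targets were above and 4 below, beside 28.5% and 17.2% of all genes. The genes below were Cdkn1b (25.8, 26.4 and 15.5 FPKM), Cdkn1c (13.4, 17.7 and 5.96 FPKM), Cdkn2c (37.3, 35.5 and 6.44 FPKM) and the p53 target Sesn1 (12.9, 14.4 and 5.70 FPKM). Cdkn2a, whose products mark senescent cells, was not told apart from day 8 (29.4, 16.9 and 16 FPKM). Gadd45a was above as deposited and lost its call against control day 8 under both other scalings.

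Stress and hypoxia genes held different positions. Heat shock chaperones were above in 6 of 12 cases, between in 4 and below in none, beside 28.5%, 10.4% and 17.2% of all genes. Hspa1b had 5.23, 7.40 and 22.5 FPKM and Hsp90aa1 146, 94 and 192 FPKM. Hspa1a and Hspa1b are near-identical copies whose reads may be shared. Of 19 NRF2 targets 6 were above, near the 28.5% of all genes tested, and 8 below, where 17.2% of all genes were. The detoxifying genes Hmox1 (127, 161 and 467 FPKM), Nqo1 (4.27, 2.38 and 8.25 FPKM) and Gclc (24.8, 10.9 and 35.5 FPKM) were above, and the pentose phosphate and malic enzyme genes G6pdx (69.1, 137 and 33.1 FPKM), Tkt (76.5, 183 and 40.6 FPKM) and Me1 (59.5, 293 and 27.6 FPKM) below. In the iron list Ftl1 was above (1394, 1517 and 3785 FPKM) and Fth1 below (4709, 2342 and 1616 FPKM), the light and heavy chains of ferritin, and Fth1 lost its call against control day 8 under quantile scaling.
Of 21 ATF4 and ER stress genes 4 were above and 6 below, beside 28.5% and 17.2% of all genes tested. The count below was 10 after median-ratio and 9 after quantile scaling. Atf3 (6.85, 12.9 and 33.6 FPKM) was above and Xbp1 (135, 123 and 57.9 FPKM) and Trib3 (29.4, 64.4 and 9.44 FPKM) below. HIF targets lay between the days in 10 of 22 cases (10.4% of all genes did), as with Adm (26.3, 289 and 159 FPKM), Egln3 (3.80, 83.9 and 8.49 FPKM) and Ldha (482, 1158 and 598 FPKM). Another 7 were below, where 17.2% of all genes were, Bnip3 among them (103, 664 and 74.6 FPKM). Interferon-stimulated genes could not be told apart from control day 4 in 7 of 16 cases (16.5% of all genes), for example Irf7 (3.87, 15.6 and 4.59 FPKM) and Oasl2 (2.44, 10.4 and 2.70 FPKM). The EGCG day 4 means of these genes were 0.957 and 0.192 FPKM. Cholesterol genes were below in 6 of 18 cases and between in 4, beside 17.2% and 10.4% of all genes tested.

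Genes of the IGF, cAMP and thyroid hormone lists were spread over most positions. Their counts stand beside 28.5% of all genes tested above the path and 17.2% below. In the IGF list 7 of 12 were below, including Igf1 (39.4, 17.8 and 4.84 FPKM) and its binding protein Igfbp4 (1296, 393 and 85.9 FPKM), and 3 were above, including Igfbp5 (55.6, 27.9 and 241 FPKM). In the cAMP list 5 of 16 were below, including the phosphodiesterase Pde3b (39.7, 60 and 4.23 FPKM), and 3 were above, all of them AP-1 subunits. Fos had 12.3 and 10.4 FPKM in control day 4, 28.4 and 26.3 in control day 8 and 71.8 and 73.1 in EGCG day 8, Fosb means of 0.365, 0.820 and 3.03 FPKM and Fosl2 of 35.2, 46.5 and 77.6 FPKM. The T3 response list had 3 of 10 below, 2 between, 2 not told apart from day 4, 3 not told apart from day 8 and none above. Hr, a corepressor that T3 induces, lay between at 0.322, 21.2 and 4.19 FPKM, and Dbp, a clock gene, was not told apart from day 8 at 1.77, 14.3 and 14.6 FPKM. Of the proliferins, placental hormones also made by fibroblasts, Prl2c2 lay between (42.2, 0.290 and 29.3 FPKM) and Prl2c3 above (3.35, 0.295 and 15.4 FPKM), and their sequences are close enough for reads to be shared.

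**Figure D5:**
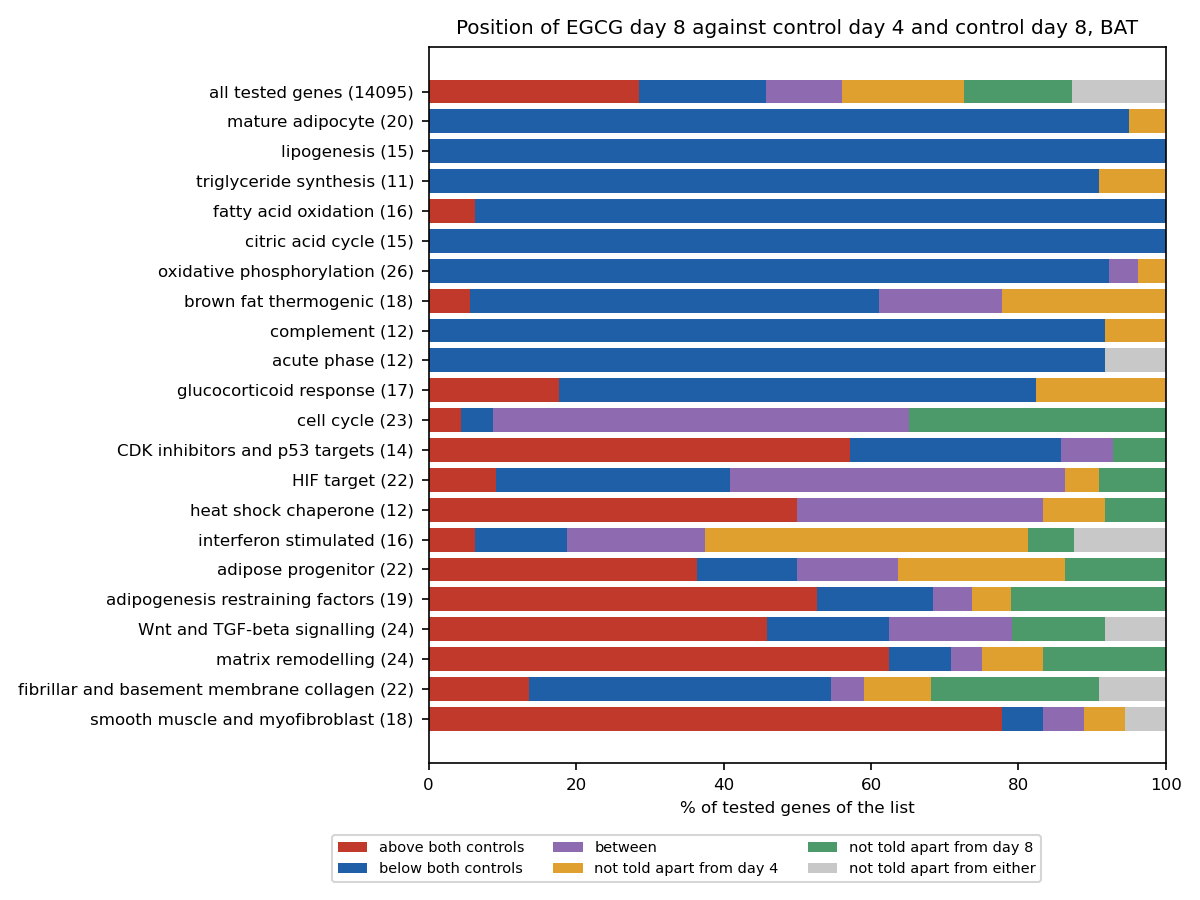
Share of the tested genes of each list (horizontal axis, %) by the position of EGCG day 8 against control day 4 and control day 8 in BAT cells, with all 14095 tested genes on top and the number of genes of each list in parentheses. Red is above and blue below both control days, purple between them, amber not told apart from day 4, green not told apart from day 8 and grey not told apart from either, and blue covers 100% of the lipogenesis and citric acid cycle lists against 17.2% of all genes.

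Promoter letters were looked up for these genes because AP-1 subunits were above the path and C/EBPα below it. The motifs were chosen after the values had been seen. RefSeq (GRCm38.p6) gave the 250 bases before a start for 468 of the genes at least 2-fold above, 355 of those at least 2-fold below and 9070 tested genes in all. TTGCNNAA, a C/EBP motif, was found on either strand in 15.5% of the promoters of genes below, 8.76% of those above and 8.89% of all tested genes. TGANTCA, an AP-1 motif, was found in 11.1% of the promoters of genes above, 7.32% of those below and 5.73% of all tested genes. The TEAD motif CATTCC was in 16.5%, 16.9% and 12.9% of promoters above, below and in all, and the E-box CACGTG in 12.6%, 9.01% and 10%. None of these motifs contains another. A match is a string of letters and not a bound site.
Of the 10 genes farthest below, 5 had a promoter in the table and 4 of these held TTGCNNAA. They are shown with Saa3, another of the lowest changes, as 30 bases on each side of the match, which is in capitals, written 5′ to 3′ on the strand of the gene.
Cidec, minus strand, chr6:113434925-113434992: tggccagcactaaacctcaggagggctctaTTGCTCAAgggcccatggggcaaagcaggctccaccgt
Lcn2, minus strand, chr2:32387918-32387985: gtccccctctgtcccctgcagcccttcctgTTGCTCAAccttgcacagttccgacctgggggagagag
Cxcl13, plus strand, chr5:95956745-95956812: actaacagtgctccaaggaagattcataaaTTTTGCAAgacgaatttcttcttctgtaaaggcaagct
C3, minus strand, chr17:57228144-57228211: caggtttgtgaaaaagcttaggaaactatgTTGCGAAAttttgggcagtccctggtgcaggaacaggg
Saa3, minus strand, chr7:46715738-46715805: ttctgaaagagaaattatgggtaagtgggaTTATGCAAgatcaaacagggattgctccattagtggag
The matches began between 45 bases (C3) and 216 bases (Lcn2) before the start. Among the 10 genes farthest above, 8 had a promoter in the table, and Ctgf was not one of these. TTGCNNAA was in 2 of the 8 (Ptgs2 and Ch25h). TGANTCA was in 1 of the 8 (Cd80) and in 1 of the 5 below (Cidec), CATTCC in none of the 8 and 2 of the 5, and CACGTG in 2 of the 8 and none of the 5. The matches to TGANTCA ended 36 bases before the start in Cd80 and 90 bases before it in Cidec.
Cd80, plus strand, chr16:38458861-38458927: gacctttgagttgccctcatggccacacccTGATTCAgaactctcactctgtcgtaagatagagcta
Cidec, minus strand, chr6:113434824-113434890: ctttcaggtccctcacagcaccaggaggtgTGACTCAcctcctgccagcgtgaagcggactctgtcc

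Markers of other cells in the stromal fraction moved too. Their counts stand beside 28.5% of all genes tested above the path and 17.2% below. The summed FPKM of 18 macrophage markers was 169 to 189 in control day 4, 130 to 143 in control day 8 and 70.4 to 71.5 in EGCG day 8, and 369 to 442 in EGCG day 4. Of 12 tested 8 were below the path and none above, as with Lyz2 (142 and 133 FPKM in control day 4, 83.6 and 84.8 in control day 8, 45.1 and 45.6 in EGCG day 8). The complement subunits C1qa, C1qb and C1qc, which macrophages make, were below as well. The 7 Schwann cell markers summed to 28.7 to 31.9 FPKM in control day 4, 42.9 to 46.3 in control day 8 and 110 to 130 in EGCG day 8, and 5 of 7 were above, including Sox10 (6.59 and 6.94, 11.2 and 11.5, and 27.7 and 25.7 FPKM). The 12 endothelial markers summed to 34.2 to 44.7, 37.1 to 40.0 and 47.3 to 52.5 FPKM, with 6 of 11 above as deposited and 3 after median-ratio scaling. The 8 pericyte markers summed to 46.0 to 49.4, 80.6 to 87.0 and 75.3 to 80.6 FPKM, with 1 above and 2 below. Mesothelial markers summed to at most 11.9 FPKM, with Upk3b at 0 in every BAT library shown. Skeletal muscle markers summed to 21.0 to 32.6, 115 to 125 and 51.1 to 73.2 FPKM, with none outside the path, and the day 8 sum in controls included myoglobin (Mb, 54.8 FPKM), which brown fat also expresses. The part of these cells in the results above was not tested.

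The comparison of EGCG day 8 with control day 4 was not the same in brown and white cells. The difference between the depots was called for 5193 genes (36.8% of those tested), with 1821 changes more positive in brown and 3372 more negative (interaction contrast, limma, adjusted p under 0.05). When both tables and all groups were fitted together the count was 1462. In white cells 352 genes lay at least 2-fold above and 318 at least 2-fold below both of their own control days. Replicates 1 and 2 of WAT control day 8 differed more than those of any other group. Their median squared difference was 3.9 in units of counting error, against 1.62 to 2.40 in the other groups. What this did to the white counts was not tested. Shared between depots were 273 genes above, which is 38.7% of the brown and 77.6% of the white genes, and 248 below, which is 44.8% and 78.0%. No library is common to the depots here. Fos differed most among the AP-1 genes, with a log2 change of 2.57 in brown cells that exceeded the white one by 4.07. Ch25h had a change of 2.75 in brown and -0.60 in white cells, a difference of 3.36, and Ptgs2 changes of 3.41 and 0.30. Car3 went the other way. It fell by 4.30 in brown cells and by 8.46 in white cells. Pparg, Cebpa and Scd1 had differences between depots of -0.32, -0.33 and 0.11 that did not pass the test (adjusted p = 0.12, 0.090 and 0.43, limma). Other mature adipocyte genes did pass it, in both directions. Adipoq and Plin1 fell further in white cells (differences of 2.15 and 2.32), and Lpl and Fabp5 further in brown cells (-1.35 and -1.23).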

How the data were processed

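RNA-seq libraries of BAT and WAT preadipocytes were grouped by their labels into 8 groups of 3 (depot, day 4 or day 8, EGCG or control), and all 24 deposited columns matched 1 sample each. The submitters' processing notes name FastQC 0.11.9, HISAT2 2.2.0, HTSeq 0.11 and the genome build mm9. Their settings, and whether counting used strand, are not given in the sources used here. The authors deposited FPKM values in 2 tables, 16 libraries of replicates 1 and 2 and 8 of replicate 3, scaled separately. Gene lengths of all 37310 genes equalled the longest transcript in GENCODE vM1 (NCBIM37, the assembly of mm9), which gave symbols and coordinates counted from 1. FPKM multiplied by length gave whole reads for 100% of values at a tolerance of 0.01, so that depth and a floor of 3 reads could be computed. Floors cover counting error only.

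Genes with at least 1 FPKM in at least 2 of the 16 libraries (14095) were tested on log2(FPKM + 1) with limma 3.58.1 in R 4.3.3 (1 mean per group over 8 groups, eBayes with trend, two-sided). Genes were called at a Benjamini-Hochberg adjusted p under 0.05 over all genes tested. Log2 changes on this scale understate low genes. Outside the alternative fits of both tables together, replicate 3 gave directions only, because its table was scaled apart. EGCG day 8 was placed outside the control path when it was called in 1 direction against both control day 4 and control day 8, comparisons that share libraries. On simulated reads for 13132 genes the procedure recovered 100% of 200 genes changed 2-fold or 4-fold, and placed 1 of 12932 unchanged genes outside. The simulation gave both control days the same means and all genes 1 dispersion (0.00237), and changed only genes with many reads. It therefore checks that the code runs as meant, and gives no error rate for small changes, low genes or a moving control path.

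Genes named were the 10 above and 10 below with the largest smaller-of-both log2 changes and the 5 highest and 5 lowest changes against day 4, protein-coding, with a mean of at least 5 FPKM in the highest group and the same direction in replicate 3. They number 26. Beside them stand members of 37 gene lists (613 of 616 entries matched). Members, lists and rules were chosen with earlier results of these data known. Where a symbol belonged to more than 1 gene the most expressed was used. Alternatives were another pseudocount, filters and scalings, BAT libraries alone, a replicate block, both tables together and voom on recovered reads. Each library of replicates 1 and 2 in BAT control day 4, BAT control day 8 and BAT EGCG day 8 was also left out in turn.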

Additional observations from a re-analysis of the deposited data

Results flagged for a closer look

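The change from control day 4 to EGCG day 8 differed between brown and white cells in 5193 genes by the interaction contrast (limma, adjusted p under 0.05), 19 of the 26 named genes among them. When both tables and all groups were fitted together the count was 1462. The values here are the brown minus the white log2 change. Of the genes above the brown path, the change was more positive in brown cells for Ch25h (3.36), Ptgs2 (3.11), Ctgf (2.68), Pmaip1 (1.66), Grem1 (1.08) and Prrg4 (0.99). Among the highest changes against day 4 it was also more positive for 9930013L23Rik (1.81), Timp3 (1.26) and Anxa3 (0.77).

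Among the named genes below the brown path, those whose change was more negative in brown cells had differences of -3.44 for Lcn2, -1.88 for C3, -1.73 for Rgs2, -1.41 for Mc5r, -1.09 for Cidec, -1.02 for Slc36a2, -0.57 for Acsl1, -0.52 for Fabp4 and -0.48 for Dgat2. Car3 had a difference of 4.16, since it fell further in white cells. The differences of -0.59 for Cxcl13 and -0.60 for Saa3 did not pass the test (adjusted p = 0.45 and 0.090, limma). Depot, isolation and culture cannot be told apart in these differences.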

How the results depend on the processing

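Counts of genes called in each comparison and outside the control path stayed within 1.5 times the reported ones under each alternative run, with 4 exceptions. Genes above the path by at least 2-fold were 1084 with voom on recovered reads (706 reported), and genes below by at least 2-fold were 859 with a pseudocount of 0.1 FPKM and 889 with voom (553 reported). Both count larger changes for low genes by their construction. Genes whose change differed between depots were 1462 when both tables and all groups were fitted together (5193 reported). That fit holds the WAT EGCG day 8 library of replicate 3, in which 5 genes took 61.0% of the reads, and the cause was not tested. Leaving out single libraries gave 8977 to 9969 genes called against control day 4, 9397 to 10202 against control day 8, 8737 to 9594 along the control path, 3611 to 3863 above and 2087 to 2293 below it, 690 to 719 and 528 to 573 by at least 2-fold, and 4024 to 5089 for the depots. The lone library left in a group was then assumed to vary like the others. Only libraries of BAT control day 4, BAT control day 8 and BAT EGCG day 8 were left out, and no WAT library was. The replicate block left 9942 genes called against control day 4, 3996 above and 2401 below the path, and changed none of the named genes' calls against control day 4. Same-numbered libraries did not deviate together in the BAT groups used (correlations of 0.0101 to 0.0122), so the numbers were not treated as pairs. All 26 named genes kept direction and call against control day 4 in each of the 13 alternatives run for them. Their differences between depots were not followed gene by gene in these alternatives.

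Median-ratio scaling moved the median log2 change of all genes against control day 8 from 0.17 to 0.02, and along the control path from -0.10 to 0.02. Among called genes, those higher went from 64.0% to 51.8% against control day 8 and from 41.5% to 53.3% along the path. Of genes above the path 3306 (82.2%) and of genes below 2341 (96.8%) kept their place under as-deposited, median-ratio and quantile scaling, and none changed sides. Values under the floor of 3 reads could not be told from 0 at this depth.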
